A study of Mus musculus with 6 samples.

Results

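Expression of 8 genes of glutathione chemistry was examined in primary Sertoli cells of the mouse, which nurse the germ cells inside the testis tubules. The 8 genes were chosen from the deposited table by their direction in the knockout comparison. They were 3 genes of glutathione supply and peroxiredoxin repair (Gclm, Srxn1 and Slc7a11) and 5 glutathione transferase genes (Gsta4, Gstm2, Gstm3, Gstm6 and Mgst1), out of 3257 genes analysed. Because the comparison chose them, their difference between the groups is described below without a test. The 3 UXT KO libraries came from C57BL/6 Sertoli cells of UXT knockout animals that received a viral construct with CRE recombinase. The 3 wild-type libraries came from C57BL/6 Sertoli cells that received an empty plasmid. The loss of UXT, the exposure to CRE and the kind of construct received (viral or plasmid) therefore cannot be told apart. Both kinds of culture were enriched for Sertoli cells by differential plating. The sources used here state neither the age of the animals nor whether replicates were separate animals or cultures, so the spread between libraries may be technical.

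NRF2, encoded by Nfe2l2, is a transcription factor that KEAP1 keeps low and that oxidants and electrophiles release. It binds antioxidant response elements together with small MAF proteins and switches on genes for glutathione synthesis, the thioredoxin system and detoxification. Glutathione is a tripeptide whose supply depends on imported cystine, and glutathione transferases couple it to electrophiles such as lipid peroxidation products. Several transferase genes are themselves known NRF2 targets in mouse liver.

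The promoter windows of the members were searched first, because they show which of these genes carry a recognisable element close to the start. RefSeq windows of 250 bases before and 50 bases from the annotated start (GRCm38.p6) were matched for 7 of the 8 members, in 10 windows. The antioxidant response element core was searched as TGACNNNGC, the joint ATF4 and C/EBP element as TGATGNAA and the AP-1 element as TGANTCA, on both strands. The core stood in 12.4% of all 32851 promoter windows, the ATF4 element in 3.97% and the AP-1 element in 7.81%. No match in the members overlapped another. The windows with a match are printed 5′ to 3′ on the strand of the gene, with the matched bases in capitals.
Gclm, chr3:122245307-122245606, plus strand: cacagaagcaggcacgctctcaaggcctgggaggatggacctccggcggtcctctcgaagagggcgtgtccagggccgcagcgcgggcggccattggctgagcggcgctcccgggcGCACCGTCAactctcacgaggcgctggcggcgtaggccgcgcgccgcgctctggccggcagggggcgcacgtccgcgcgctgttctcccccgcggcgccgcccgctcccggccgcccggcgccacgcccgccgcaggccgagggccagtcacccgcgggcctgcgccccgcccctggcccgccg
Srxn1, chr2:152105274-152105573, plus strand: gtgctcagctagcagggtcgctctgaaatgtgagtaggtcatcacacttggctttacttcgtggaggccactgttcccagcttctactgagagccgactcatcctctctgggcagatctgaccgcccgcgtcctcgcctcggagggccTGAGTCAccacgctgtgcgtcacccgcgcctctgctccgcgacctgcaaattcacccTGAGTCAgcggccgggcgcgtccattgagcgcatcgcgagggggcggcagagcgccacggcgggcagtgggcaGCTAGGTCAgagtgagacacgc
Slc7a11, chr3:50443564-50443863, minus strand: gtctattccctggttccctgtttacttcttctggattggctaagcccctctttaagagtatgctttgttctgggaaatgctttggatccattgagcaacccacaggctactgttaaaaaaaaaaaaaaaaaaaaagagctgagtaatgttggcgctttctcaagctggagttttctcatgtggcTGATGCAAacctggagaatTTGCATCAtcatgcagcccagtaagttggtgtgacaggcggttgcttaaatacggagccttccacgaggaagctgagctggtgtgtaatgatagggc
Mgst1, chr6:138140277-138140576, plus strand: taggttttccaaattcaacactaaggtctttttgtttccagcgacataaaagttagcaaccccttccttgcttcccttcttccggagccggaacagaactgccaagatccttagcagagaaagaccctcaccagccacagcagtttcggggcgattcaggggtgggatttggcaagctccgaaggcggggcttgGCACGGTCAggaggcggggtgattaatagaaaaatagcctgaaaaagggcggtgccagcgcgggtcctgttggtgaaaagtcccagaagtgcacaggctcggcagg

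The Gclm window held a match to the antioxidant response element core on the reverse strand, with its first base 134 bases upstream of the start. The Srxn1 window held the core 28 bases downstream of the start, on the reverse strand, and AP-1 matches that began 102 and 45 bases upstream. The Slc7a11 window held no match to the core and a pair of ATF4 matches, on opposite strands, that began 66 and 47 bases upstream. Among the transferases, the core matched in Mgst1 alone, 56 bases upstream of the start in 1 of its 2 windows. Gstm2, Gstm3 and the 3 windows of Gstm6 held none of the 3 motifs. Thus 2 of the 3 members that were higher in the knockout and 1 of the 4 lower members with a window carried the core letters. A match is a sequence description and was not tied to binding by any measurement here.

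**Figure D1:**
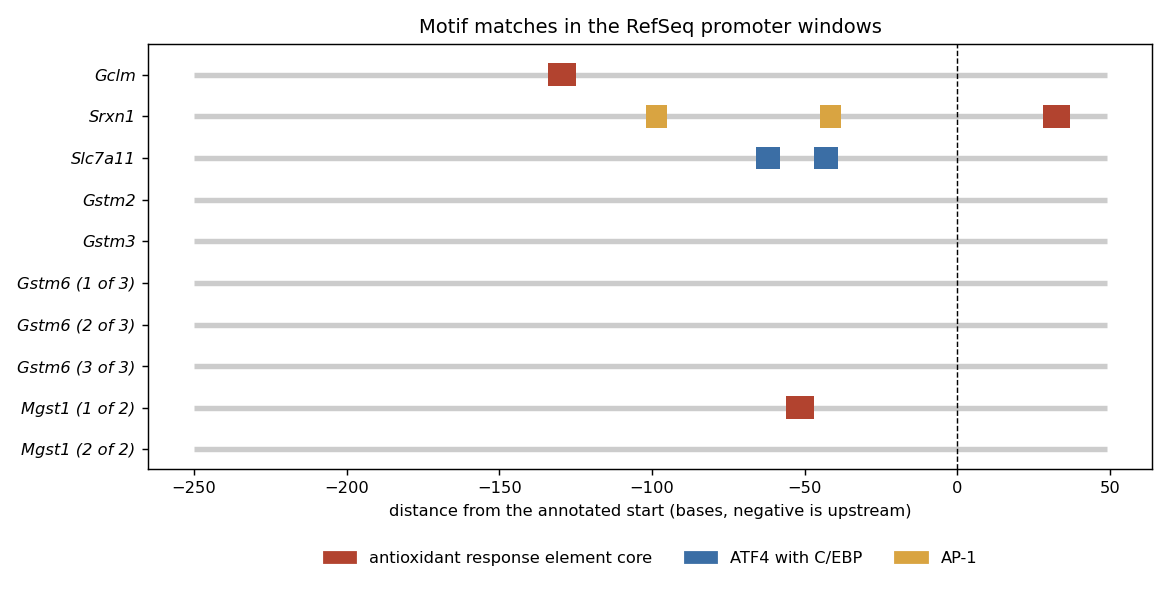
Matches to 3 motifs in the 10 promoter windows of 7 member genes, by distance from the annotated start in bases (negative is upstream). Matches lie in Gclm, Srxn1, Slc7a11 and the first window of Mgst1, and the Gstm genes have none.

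Over the lists, the antioxidant response element core matched in 11 of 32 NRF2 target genes with a window (34.4%) and in 4 of 27 transferase genes (14.8%). Over all genes with a window the share was 14.0%. The 4 transferase genes were Gsta3, Gstm5, Gstm7 and Mgst1. The core was as frequent in the list of ATF4 targets and amino acid supply genes, with 9 of 27 genes (33.3%), so its share was not particular to the NRF2 list. The ATF4 element also matched in 9 of 27 genes of the ATF4 list (33.3%), Slc7a11 among them, beside 4.51% of all genes.

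Each library's deposited value was on a log2 scale, and how it was transformed is not stated in the sources used. For the members, the difference between group means of these values was smaller than the change the authors' deposited table lists. The ratio of these differences lay between 0.649 and 0.870 for 7 members and was 0.0961 for Gstm3. Folds are therefore quoted from the authors' deposited table and values per library show the spread. Each SE of a difference is the moderated one of the limma fit described below, which borrows variance over the genes of the selected table. It can be smaller than the SDs of a gene's own libraries imply. In none of the 8 members did the knockout and wild-type values overlap. Since the table had been selected on these libraries, 31.7% of its genes had all knockout values above and 65.8% had them all below. This selection chose the members too, and nothing is read from their separation.

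Gclm encodes the modifier subunit of glutamate-cysteine ligase, the enzyme that limits glutathione synthesis. Gclm (gene ID 14630, chromosome 3, 122245557 to 122270732 in GENCODE M21 on GRCm38) had log2 values of 12.25, 12.09 and 12.82 in the UXT KO libraries, against 11.04, 11.10 and 11.23 in the wild-type libraries. Knockout replicate 3 stood above the other two knockout libraries, which lay close together. The group means of Gclm were 12.39 ± 0.39 in knockout and 11.12 ± 0.10 in wild-type cells (SD, n = 3 each), a difference of 1.26 ± 0.17 (SE). Its fold in the authors' deposited table was 3.49.

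Srxn1 encodes sulfiredoxin, which restores peroxiredoxins that have been over-oxidised by peroxide. Srxn1 (gene ID 76650, chromosome 2, 152105516 to 152111376) had log2 values of 13.53, 13.46 and 14.22 in the UXT KO libraries, against 12.42, 12.63 and 12.59 in the wild-type libraries. The order of the knockout libraries was that of Gclm, with replicate 3 high and replicate 2 lowest. The means of Srxn1 were 13.74 ± 0.42 in knockout and 12.55 ± 0.11 in wild-type cells (SD, n = 3 each), a difference of 1.19 ± 0.18 (SE). The fold of Srxn1 in the authors' deposited table was 3.13.

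Slc7a11 encodes the transporter subunit that exchanges glutamate for extracellular cystine, the source of cysteine for glutathione. Slc7a11 (gene ID 26570, chromosome 3, 49892526 to 50443614) had log2 values of 9.80, 9.82 and 10.75 in the UXT KO libraries, against 9.02, 9.35 and 9.01 in the wild-type libraries. Knockout replicates 1 and 2 were nearly equal and replicate 3 was higher. The means of Slc7a11 were 10.12 ± 0.54 in knockout and 9.12 ± 0.19 in wild-type cells (SD, n = 3 each), a difference of 1.0 ± 0.23 (SE). Its fold in the authors' deposited table was 2.65. Without knockout replicate 3 the difference was 0.68 for Slc7a11, 1.04 for Gclm and 0.95 for Srxn1.

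The transferases were lower in the knockout. Gsta4 encodes an alpha-class transferase that conjugates 4-hydroxynonenal, a product of lipid peroxidation. Gsta4 (gene ID 14860, chromosome 9, 78182774 to 78209349) had log2 values of 9.88, 10.51 and 10.59 in the UXT KO libraries, against 11.52, 11.85 and 11.86 in the wild-type libraries. In each group, replicate 1 was the lowest library and the other two lay close together. The means of Gsta4 were 10.33 ± 0.39 in knockout and 11.74 ± 0.20 in wild-type cells (SD, n = 3 each), a difference of -1.42 ± 0.18 (SE). The authors' deposited table gave a 3.59-fold lower level.

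The mu-class genes encode cytosolic transferases with overlapping substrates. Gstm2 (gene ID 14863, chromosome 3, 107981702 to 107986453) had log2 values of 12.78, 13.07 and 13.15 in the UXT KO libraries, against 13.82, 14.08 and 14.07 in the wild-type libraries. Its difference was -0.99 ± 0.12 (SE) and the level was 2.77-fold lower in the authors' deposited table. Replicate 1 was again lowest in each group. Gstm6 (gene ID 14867, chromosome 3, 107938847 to 107943749) had log2 values of 9.31, 10.07 and 10.24 in the UXT KO libraries, against 10.47, 11.21 and 10.98 in the wild-type libraries. Its difference was -1.01 ± 0.25 (SE) and the level was 2.24-fold lower in the authors' deposited table. Gstm6 had the widest spread of the 5 transferases, with a range of 0.94 among knockout and 0.73 among wild-type libraries. Its lowest wild-type library, replicate 1, lay closest to the knockout libraries.

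Gstm3 (gene ID 14864, chromosome 3, 107963696 to 107969283) had log2 values of 2.86, 2.85 and 2.87 in the UXT KO libraries, against 2.92, 3.09 and 2.94 in the wild-type libraries. The difference was -0.12 ± 0.05 (SE), while the authors' deposited table gave a 2.43-fold lower level. Its average log2 expression in the authors' deposited table was 3.02, above that of only 1.04% of the table's genes (not corrected for length). At this low level the values hardly varied within the knockout group. The difference of Gstm3 changed sign to 0.17 after median centring of the libraries and was -0.07 without wild-type replicate 2.

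Mgst1 encodes a membrane-bound transferase of microsomes and mitochondria that also reduces lipid hydroperoxides. Mgst1 (gene ID 56615, chromosome 6, 138140316 to 138156755) had log2 values of 12.98, 13.02 and 12.99 in the UXT KO libraries, against 13.20, 13.50 and 13.45 in the wild-type libraries. The knockout libraries agreed within 0.05 while the wild-type libraries spanned 0.30. The difference was -0.39 ± 0.09 (SE) and the level was 1.51-fold lower in the authors' deposited table, just inside the table's minimum fold of 1.5. After quantile normalization its difference was -0.15 and after median centring -0.09.

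**Figure D2:**
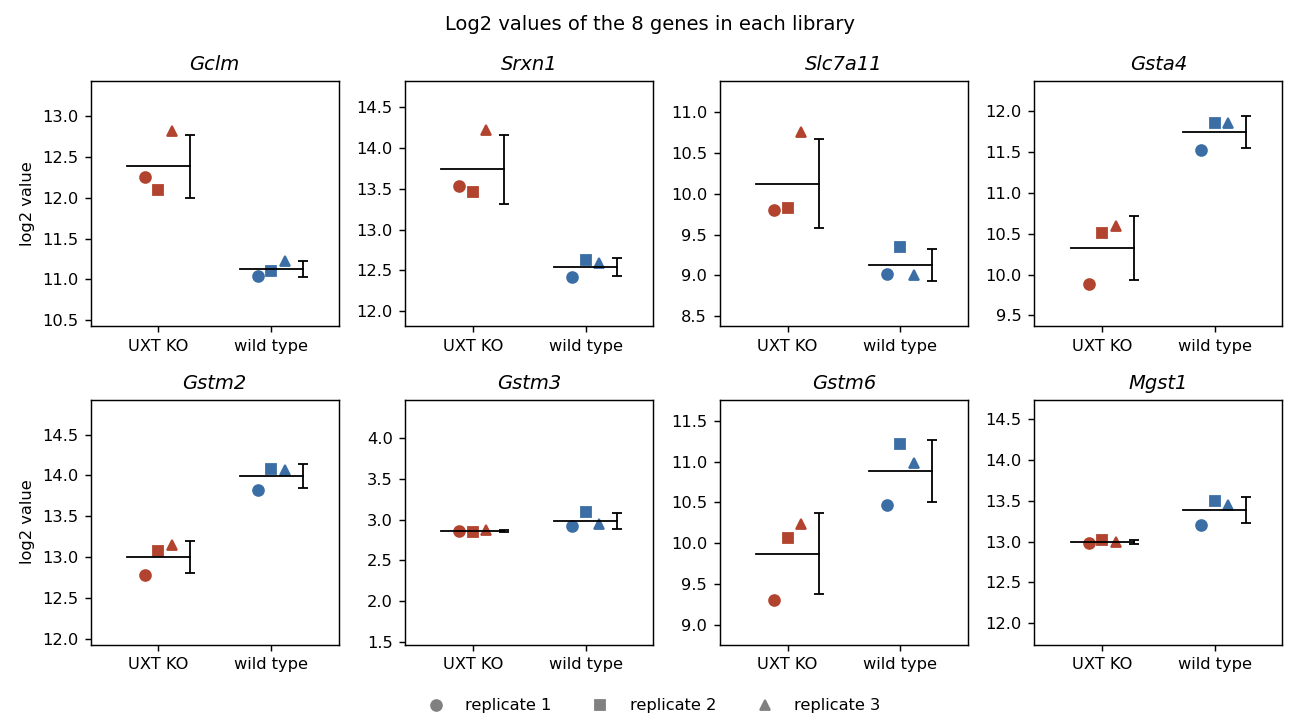
Log2 values (y axis, 3 units in each panel) of the 8 genes in each library, with UXT KO left of wild type; lines are means and bars are SD over 3 libraries. Gclm, Srxn1 and Slc7a11 are higher in UXT KO with replicate 3 highest, and the transferases are lower with a shift of only -0.12 in Gstm3.

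The mu-class transferases lie side by side. Of 7 Gstm genes within 149 kb of chromosome 3 (107895821 to 108044894), 4 were in the table, namely Gstm7, Gstm6, Gstm3 and Gstm2, which are neighbours on the minus strand. In that order along the chromosome they were 1.87-fold, 2.24-fold, 2.43-fold and 2.77-fold lower in the authors' deposited table. The differences of the library values were not graded this way, at -0.67, -1.01, -0.12 and -0.99 (log2) in the same order. Gstm7, named after its value was seen, had log2 values of 9.85, 10.44 and 10.37 in the UXT KO libraries, against 10.45, 11.10 and 11.10 in the wild-type libraries. Its groups touched, since the lowest wild-type value lay just above the highest knockout value. Gstm5, Gstm1 and Gstm4 were not analysed here. The Gstm members share sequence with other genes. For Gstm3, 28.8% of the 50-base windows of its longest transcript also occurred in a transcript of another gene. The share was 11.5% for Gstm6 and 9.36% for Gstm2, beside 0.776% for Gclm, 0.698% for Slc7a11 and none for Srxn1, Gsta4 or Mgst1. The gene sharing most was Gm8834 for Gstm3 (202 of 363 shared windows), Gm12499 for Gstm2 (56 of 95) and Gstm3 for Gstm6 (76 of 130). Neither Gm8834 nor Gm12499 is among the 7 Gstm genes above. The values of single Gstm genes are therefore uncertain where the counting could split reads between transcripts that share sequence.

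The pathway beyond the members was described with lists of known genes, fitted gene by gene with limma over the whole table. The table holds only genes that the authors had selected as different on these same libraries, so nearly every gene was bound to pass, and a call here repeats that selection. A gene was called at an adjusted p under 0.05, which 32.1% of the 3257 genes reached as higher and 67.5% as lower in the knockout, leaving 13 genes. All list genes in the table were called, and no p is quoted for them. What the counts describe is the direction of the selected genes, for which rose and fell are used below. After quantile normalization these shares were 32.2% and 35.1%, and after median centring 34.3% and 31.4%. The median difference over the table was -0.40 on the log2 scale, and it was -0.07 after quantile normalization and -0.10 after median centring.

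Of 39 NRF2 targets other than transferases, 21 were in the table, and 17 rose and 4 fell in knockout cells. Without the 3 members on this list, 14 of 18 (77.8%) rose and 4 (22.2%) fell, beside 32.1% and 67.5% over all genes analysed. The median of the 21 was 0.85 as log2 fold change of the authors' deposited table, beside -0.88 over all genes, and it was 0.79 without the members. The largest rise was that of Osgin1, a growth inhibitor induced by oxidative stress, at 5.79-fold in the authors' deposited table. Osgin1 had log2 values of 13.56, 13.46 and 14.00 in the UXT KO libraries, against 11.82, 12.17 and 11.99 in the wild-type libraries. Sqstm1, the p62 autophagy receptor that also binds KEAP1, rose 3.25-fold in the authors' deposited table. Hmox1, the haem oxygenase gene, and Nqo1, a quinone reductase gene, rose by 2.93-fold and 2.21-fold according to the authors' deposited table and are quoted after their values were seen. Without knockout replicate 3 the log2 difference of Nqo1 was 0.42, beside 0.67 with it.

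The 4 genes of the list that fell were Akr1c13, Ugt1a6a, Akr1b8 and Abcc3, which encode an aldo-keto reductase, a glucuronosyltransferase, another aldo-keto reductase and an efflux transporter of conjugates. According to the authors' deposited table they were lower by 3.16-fold, 2.09-fold, 1.65-fold and, for Abcc3, 1.6-fold. The count of risen NRF2 targets was 17 under every alternative run, while that of fallen targets was 2 after either other scaling. Abcc3 lost its call after both scalings, Ugt1a6a after quantile normalization and Akr1b8 after median centring.

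Of 26 genes of glutathione synthesis, turnover and NADPH supply, 14 were in the table, with 6 risen and 8 fallen, and 4 and 8 without the members. Without the members these shares were 33.3% and 66.7%, near the 32.1% and 67.5% over all genes analysed. The genes of glutathione synthesis itself were among those that rose. Gclc, the catalytic subunit partner of Gclm, rose 2.59-fold and Gss, glutathione synthetase, rose 2.16-fold in the authors' deposited table. Gclc had log2 values of 10.88, 10.91 and 11.43 in the UXT KO libraries, against 10.12, 10.29 and 10.23 in the wild-type libraries. Pgd, an NADPH-forming enzyme of the pentose phosphate pathway, and Ggt1, which splits extracellular glutathione, were the others that rose. Genes that fell included Cbs, at 4.92-fold in the authors' deposited table, and Cth, which together make cysteine from homocysteine by transsulfuration. Dpep1, Ggt5 and Oplah, of extracellular glutathione breakdown and 5-oxoproline recycling, fell by 3.95-fold, 3.34-fold and 2.62-fold according to the authors' deposited table. After quantile normalization 6 genes of this list were called higher and 3 lower, and after median centring 6 and 5. Cbs and Cth were among those no longer called after quantile normalization, with log2 differences of -0.35 for Cbs and -0.25 for Cth, beside -0.74 and -0.61 without it.

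Of 31 transferases and related membrane proteins, 13 were in the table, with 1 risen and 12 fallen, and 1 and 7 without the members. Without the members these shares were 12.5% and 87.5%, beside 32.1% and 67.5% over all genes analysed. The median of the 13 was -1.16 as log2 fold change of the authors' deposited table, and -0.92 without the members, beside -0.88 over all genes. On the scale of the library values the median difference was -0.42 for the list and -0.39 without the members, beside -0.40 over all genes. The gene that rose was Gsto1, an omega-class transferase that reduces dehydroascorbate, at 1.89-fold in the authors' deposited table. Gsto1 had log2 values of 12.71, 12.61 and 12.46 in the UXT KO libraries, against 11.99, 12.05 and 11.96 in the wild-type libraries. Alox5ap, which presents arachidonic acid to 5-lipoxygenase in leukocytes, and Hpgds, a prostaglandin D synthase, fell by 4.04-fold and 3.28-fold according to the authors' deposited table. The library values of Hpgds were low, with means of 4.6 in knockout and 4.9 in wild-type cells. Their log2 difference was -0.3, beside a log2 fold change of -1.71 in the authors' deposited table. Hpgds lost its call after both other scalings. Alox5ap belongs to the same membrane protein family as Mgst1 and is not a conjugating enzyme. The balance of this list depended on the scaling, with 6 called lower and 1 higher after quantile normalization and 5 lower and 2 higher after median centring. Gsta4, Gstm2, Gstm6, Alox5ap and Ptges were called lower under both, while the sign of Mgst2 turned after quantile normalization and the signs of Gstm3 and Gstp2 after median centring. Mgst2 was no longer called without knockout replicate 3, wild-type replicate 2 or wild-type replicate 3.

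**Figure D3:**
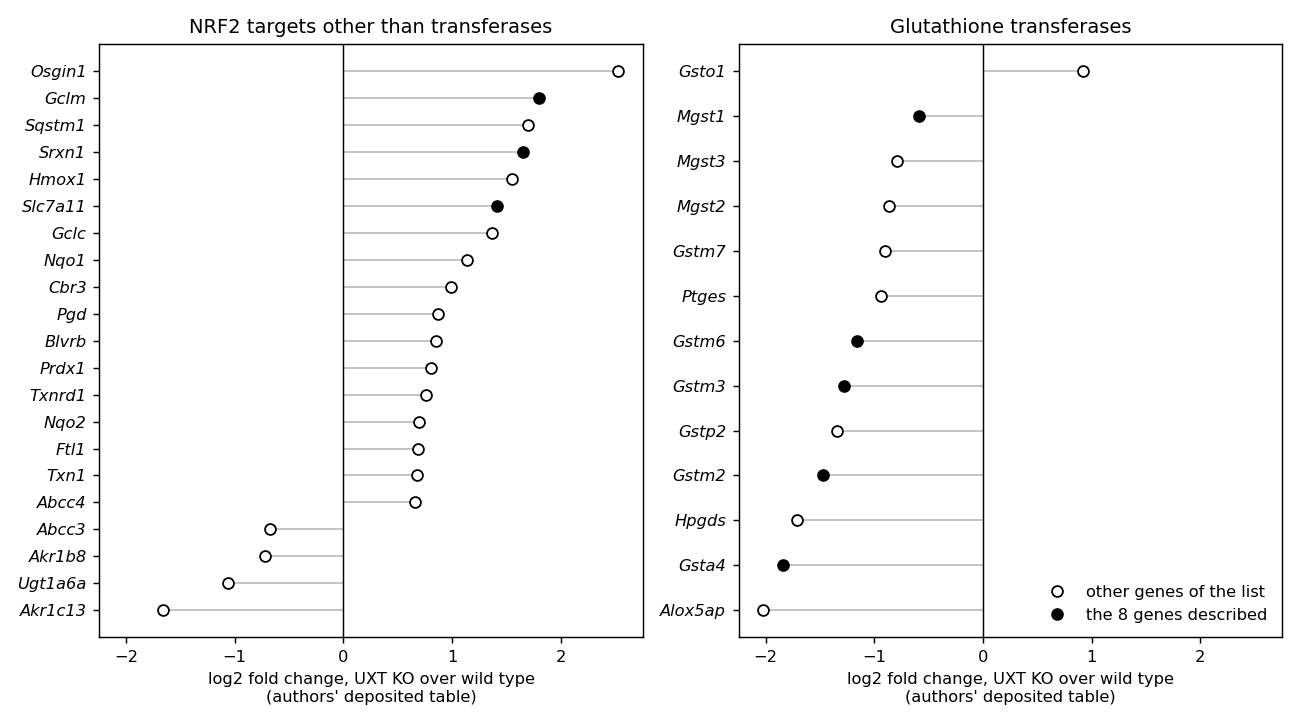
Fold of UXT KO over wild type on a log2 scale, as the authors' deposited table lists it (x axis), for the 21 NRF2 targets (left) and 13 transferases (right) in the table, with the 8 genes described in black. In the left panel 17 points lie to the right of 0 and in the right panel 12 lie to the left of 0, and none lies close to 0 because the table holds genes of at least 1.5-fold.

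Of 35 genes of the thioredoxin, peroxiredoxin and peroxide systems, 11 were in the table, with 7 risen and 4 fallen. Without the member Srxn1 the counts were 6 and 4 of 10 (60.0% and 40.0%), beside 32.1% and 67.5% over all genes analysed. Besides Srxn1, the peroxiredoxin genes Prdx6 and Prdx1 rose by 1.88-fold and 1.75-fold, and the thioredoxin reductase gene Txnrd1 rose 1.69-fold in the authors' deposited table. Txnip, which binds and inhibits thioredoxin, fell 2.66-fold and the peroxiredoxin genes Prdx5 and Prdx4 fell by 1.61-fold and 1.54-fold according to the authors' deposited table. Prdx1 and Prdx6 were called higher under both other scalings. The mitochondrial Prdx5 was called lower under neither, with log2 differences of -0.18 after quantile normalization and -0.17 after median centring, and the reticular Prdx4 was not called after median centring (-0.11). Without knockout replicate 3 the difference of Txnrd1 was 0.32, beside 0.52 with it. After quantile normalization 2 genes of this list were called lower and after median centring 1.

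Slc7a11 is also a known target of ATF4, the transcription factor of the amino acid response, so that list was described beside it. Of 35 ATF4 targets and amino acid supply genes, 14 were in the table, with 4 risen and 10 fallen. These shares, 28.6% and 71.4%, were near the 32.1% and 67.5% over all genes analysed. Those that rose were Slc7a11, Ddit3 (the stress factor CHOP) at 2.25-fold, Nupr1 at 2.20-fold and Ppp1r15a at 1.58-fold in the authors' deposited table. Among those that fell, Gdf15 was 6.72-fold, Vldlr 2.67-fold, Slc7a3 2.54-fold and Pycr1 2.18-fold lower in the authors' deposited table. After quantile normalization 4 genes of this list were called lower, Slc7a3 no longer among them, and after median centring 5. Without knockout replicate 3 the log2 difference of Ddit3 was 0.55, beside 0.88 with it.

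The libraries of a group differed in the members in a pattern that was noticed after the values were seen. A high knockout replicate 3 also raises the difference that chose the members, so the pattern is not independent of that choice. Among the 17 NRF2 targets that rose, knockout replicate 3 was the highest knockout library in 15, and in 12 of the 14 that are not members. Over all 1047 genes higher in the authors' deposited table, it was the highest in 58.0%. The excess of replicate 3 over the mean of the other two knockout libraries had a median of 0.49 over the 17 and 0.35 without the members, beside 0.08 over the 1047 genes. It was 0.66 for Gclm, 0.73 for Srxn1 and 0.94 for Slc7a11, and 99.0%, 99.4% and 99.8% of the higher genes had a smaller excess. The higher genes were not matched to the members for the size of the rise. Txn1 and Abcc4 were the exceptions, with excesses of -0.00 and -0.06. In the 4 NRF2 targets that fell, replicate 3 was also the highest knockout library, with excesses between 0.06 and 0.31. The 4 ATF4 targets that rose shared the pattern, with an excess between 0.37 for Ppp1r15a and 1.01 for Ddit3.

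The members among the transferases had other libraries apart. Among the 12 that fell, knockout replicate 1 was the lowest knockout library in 8 and wild-type replicate 1 the lowest wild-type library in 8. Over the 2210 genes lower in the authors' deposited table these shares were 44.6% and 34.4%. Without the members the counts were 4 and 3 of 7, with median deviations of replicate 1 of -0.07 in knockout and -0.01 in wild-type libraries, so the pattern lay mainly in the members. Both held in 6, namely Gsta4, Gstm2, Gstm6, Gstm7, Gstp2 and Mgst1, beside 402 (18.2%) of the 2210 genes lower in the authors' deposited table. Without the members both held in 2 of 7. Knockout replicate 1 lay below the mean of the other two by -0.85 for Gstm6, -0.67 for Gsta4, -0.56 for Gstm7 and -0.33 for Gstm2 (log2 difference). Wild-type replicate 1 lay below its group by -0.62, -0.34, -0.65 and -0.26 for the same genes. For Mgst1 and Gstp2 these deviations were -0.03 and -0.09 in knockout and -0.27 and -0.24 in wild-type libraries. Whether libraries of the same number share an origin is not stated in the sources used.

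**Figure D4:**
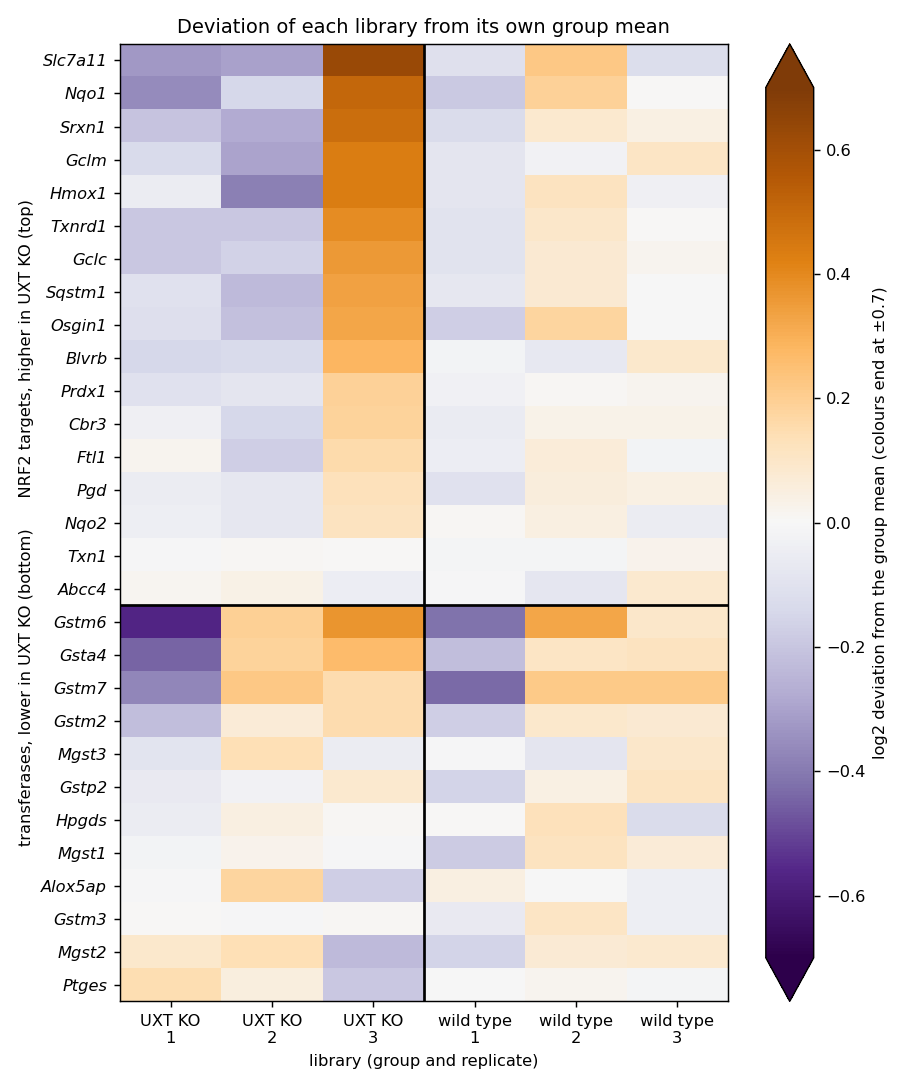
Deviation (log2, colour) of each library from the mean of its own group for the 17 NRF2 targets that rose (top) and the 12 transferases that fell (bottom), with UXT KO libraries left. UXT KO replicate 3 is highest in 15 of the upper genes, and replicate 1 of both groups is lowest in 6 of the lower genes.

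Markers of cell types were read in the same libraries, as sums of the values returned to the linear scale. Each sum is carried mostly by the most abundant markers of its list, so weaker markers can fall further than the sum shows. Over all 3257 genes analysed, 2210 were lower in the authors' deposited table, and the median was -0.88 (log2). Of 25 Sertoli cell markers, 18 were in the table and 17 were lower in the authors' deposited table, by a median over the 18 of -1.82 (log2). Their sum was 59300, 78700 and 79900 in the UXT KO libraries, against 140000, 187000 and 172000 in the wild-type libraries. Replicate 1 thus had the lowest sum of each group, and it was also the lowest library of each group for Gsta4, Gstm2 and Gstm6. It was lowest for Mgst1 too, but the knockout values there were nearly equal, at 12.98, 13.02 and 12.99. For Gstm3 the lowest knockout library was replicate 2, with values of 2.86, 2.85 and 2.87. Knockout replicate 1 was the lowest knockout library in 15 of the 18 markers and wild-type replicate 1 the lowest wild-type library in 13, beside 38.8% and 36.1% of all genes analysed. No marker in the table was at 0, and the part of the Sertoli marker level in the transferase values was not tested. In bulk libraries, fewer cells of a type and less RNA per cell cannot be told apart.

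Leydig cell markers moved the other way. The 4 in the table, of 10, were higher in the authors' deposited table, and their sum lay between 63900 and 81900 in knockout and between 42600 and 47700 in wild-type libraries. Macrophage markers, 16 of 16 in the table, were all lower, with sums between 10400 and 12200 in knockout and between 29200 and 37400 in wild-type libraries. Their part in the values of Hpgds and Alox5ap, which leukocytes express, was not tested. Endothelial (14 of 15), peritubular myoid (9 of 10) and fibroblast markers (5 of 10) in the table were also lower. In the authors' deposited table the median fall was 9.52-fold for endothelial, 6.31-fold for macrophage, 2.43-fold for myoid and 1.92-fold for fibroblast markers. Fibroblast sums lay between 684000 and 1140000 in knockout and between 1430000 and 1590000 in wild-type libraries. Germ cell markers were 2 lower and 1 higher of 3, and the 1 red blood cell marker was lower. Endothelial sums lay between 9110 and 10500 in knockout and between 16000 and 17300 in wild-type libraries, and myoid sums between 382000 and 439000 in knockout and between 535000 and 667000 in wild-type libraries. Knockout replicate 3, the highest for the NRF2 targets, had the lowest knockout sums for Leydig, myoid and fibroblast markers. It had the highest knockout sums for Sertoli (79900) and macrophage (12200) markers. The part of these cell types in the NRF2 target values was not tested. Uxt itself was not analysed here, so the knockout was not checked on its own transcript.

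The genes whose pattern over the 6 libraries was closest to a member were found by the Euclidean distance between deviations from the wild-type mean. The 3 closest to Gclm were Srxn1 (distance 0.20), Ifrd1 (0.24) and Sqstm1 (0.31). Ifrd1 had log2 values of 12.67, 12.41 and 13.26 in the UXT KO libraries, against 11.56, 11.40 and 11.47 in the wild-type libraries. Srxn1 and Sqstm1 were on the list of NRF2 targets, which held 21 of the 3257 genes. Srxn1 is a member chosen together with Gclm from the same comparison, so nothing is read from its closeness. The 3 closest to Gsta4 were BC021891 (0.15), Amhr2 (0.19) and 4930550L24Rik (0.21). Amhr2 encodes the receptor of anti-Müllerian hormone and had log2 values of 7.31, 7.98 and 8.18 in the UXT KO libraries, against 9.16, 9.35 and 9.35 in the wild-type libraries. None of the 3 was on a transferase list. These distances describe a table selected for the difference between the groups.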

How the data were processed

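RNA of 3 UXT KO and 3 wild-type Sertoli cell libraries was sequenced with a stranded kit for messenger RNA, per the labels' protocols. The submitters' processing notes name FastQC, STAR, DESeq2 and mm10; counter, annotation and use of strand are not given in the sources used here. Deposited by the authors were log2 values per library, the log2 fold change, a signed fold score, p-values and adjusted p-values of a selected set of genes (fold of at least 1.5, adjusted p up to 0.0499). Depth was unknown, which leaves counting error unstated. The table had 3261 rows; 4 rows of 2 symbols with repeated rows were left out.

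The log2 values, with no covariate or filter, were fitted over 3257 genes by limma (3.58.1; R 4.3.3), its variance prior following the mean, with Benjamini-Hochberg adjustment. The code was tested on simulated data. Groups and replicate numbers came from the titles. The members and lists were chosen with earlier results of these data known. The 8 members were named, with the 4 largest rises and falls of each longer list and the 3 genes nearest to Gclm and Gsta4. Alternatives were quantile normalization, median centring, leaving out the genes of lowest mean, no trend, a replicate block, each library left out, and an adjusted p of 0.01. The pseudocount alternative was not needed for log2 values. Sequences came from RefSeq (GRCm38.p6), gene positions and transcripts from GENCODE M21, whose GRCm38 corresponds to mm10.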

Additional observations from a re-analysis of the deposited data

How the results depend on the processing

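Of 279 alternative values, 256 stayed within 1.5 times the reported count or, for a member's difference, within 1 SD between libraries. Leaving out 1 library, the variance model, the replicate block and the stricter threshold changed none of the counts by over 1.5 times, and among the members' differences without a library Gstm3 moved by over 1.5 times (-0.16 to -0.07). The other changes came from scaling. After quantile normalization, 1143 genes of the table were called lower, with 6 transferases, 2 NRF2 targets, 3 glutathione supply genes, 2 thioredoxin and peroxide genes, 4 ATF4 list genes and 0 AhR list genes; Gstm2 differed by -0.78, Gstm3 by -0.03 and Mgst1 by -0.15. After median centring, 1024 genes were called lower, with 5 transferases (and 2 higher), 2 NRF2 targets, 5 glutathione supply genes, 1 thioredoxin and peroxide gene, 5 ATF4 list genes and 1 AhR list gene; Gclm differed by 1.56, Gstm2 by -0.69, Mgst1 by -0.09 and Gstm3, reversed, by 0.17. These scalings raised the table's median difference by 0.33 and 0.30; the selected table makes equal medians an assumption. Without the genes of lowest mean, Gstm3, Gstp2, Hpgds, Mgst2, Cbs, Ggt1 and Nfe2l3 were not tested, which left 8 transferases, 7 glutathione supply genes (and 5 higher) and 0 regulators called lower. Same-numbered libraries correlated at 0.18, -0.07 and -0.00 over genes. Knockout replicate 1 correlated best with wild-type replicate 1, while knockout replicates 2 and 3 correlated best with another number. With so few libraries these values cannot decide whether same-numbered libraries share an origin. With the replicate block 1045 genes were called higher and 2207 lower, against 1044 and 2200 without it. Depth was unknown, so counting error at low levels, as for Gstm3, could not be given.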

Other observations

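Of 15 genes for NRF2 and its regulators, 2 were in the table, Sqstm1 and Nfe2l3, a relative of NRF2. Nfe2l3 fell 11.4-fold in the authors' deposited table, a log2 fold change of -3.51, while the difference of its library values was only -1.15. It had log2 values of 5.82, 5.93 and 5.81 in the UXT KO libraries, against 6.85, 6.92 and 7.25 in the wild-type libraries. Nfe2l2 and Keap1 were not analysed here.

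Of 18 AhR targets and other conjugation enzymes, 4 were in the table. Nqo1 and Ephx2, an epoxide hydrolase gene, rose by 2.21-fold and 2.91-fold, and Ugt1a6a and Ahr, the aryl hydrocarbon receptor gene, fell by 2.09-fold and 1.66-fold according to the authors' deposited table. Nqo1 and Ugt1a6a are known targets of both NRF2 and AhR. Ugt1a6a was no longer called lower after quantile normalization, with a log2 difference of -0.16, beside -0.58 without it, and neither Ahr nor any other gene of the list was called lower there. Nqo1 had log2 values of 9.51, 9.72 and 10.37 in the UXT KO libraries, against 9.0, 9.38 and 9.19 in the wild-type libraries. Ugt1a6a had 8.03, 8.04 and 8.34 in the UXT KO libraries, against 8.76, 8.64 and 8.75 in the wild-type libraries. Neither gene's groups overlapped. Among all genes analysed, 31.7% had every knockout value above the wild-type values and 65.8% had every knockout value below them. Nothing is therefore read from the separation of Nqo1 and Ugt1a6a. Knockout replicate 3 was the highest knockout library for both genes.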
